A study of Mus musculus with 267 samples.

Results

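STAT6 peaks were already called at 30589 sites in resting bone marrow-derived macrophages (BMDMs) of C57BL/6J (C57) mice, and 6024 of these basal sites (19.7%) had no STAT6 peak after IL-4. A site was placed in this set when its basal peak shared not a single base with any STAT6 peak called after 1, 6 or 24 hours of IL-4. A further 11126 basal sites (36.4%) met a STAT6 peak at 1 or 2 of these times, of which 6063 did so at 24 hours alone, and 13439 (43.9%) met one at all 3 times. These 3 sets are called sites without an IL-4 peak, partly kept sites and kept sites. The lists of peaks chose the sites, so the counts and scores of the C57 STAT6 peaks are described here without a test, and absence of a peak is absence from a list, not a measured level of zero.

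STAT6 is the transcription factor that carries the IL-4 signal to the genome. Receptor-bound Janus kinases phosphorylate it, and phosphorylated STAT6 dimers enter the nucleus and bind palindromic elements that begin with TTC and end with GAA. In macrophages this switches on genes of alternative activation such as Arg1, Mrc1 and Retnla. Signal-dependent factors such as STAT6 largely bind at enhancers that PU.1 and C/EBPβ, the lineage-determining factors of macrophages, have opened.

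The BMDMs came from young adult female mice and were grown in macrophage colony-stimulating factor, then left untreated (basal) or given IL-4 at 20 ng/ml. All C57 groups used here are wild type: STAT6, PU.1, C/EBPβ, PPARγ and EGR2 peaks, and tags of H3K27ac (active regulatory elements), RNA polymerase II (Pol II), H3K4me2 and H3K4me3. BMDMs of 4 further strains, SPRET/EiJ (SPRET), PWK/PhJ (PWK), NOD/ShiLtJ (NOD) and BALB/cJ (BALB), gave STAT6 peaks, basal and at 24 hours. Egr2flfl cells carry a floxed Egr2 gene, and LyzMCreEgr2flfl cells also carry Cre driven by the myeloid Lyz2 (LyzM) gene, and both were measured basal and at 24 hours. Macrophage promoters carried H3K27ac at 8 of 8 defining genes, with basal means of 190.2 to 848.1 tags per 10000000, while none of 4 T cell genes and neither of the 2 hepatocyte genes had a region, and regions of the B cell, neutrophil and epithelial genes held 0.355 to 88.1 tags.

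The sites without an IL-4 peak were for the most part weak basal peaks. Their median deposited count was 22 (quartiles 20 and 26, range 16 to 320), against 28 at partly kept sites and 43 at kept sites, and 17.4% of them held the highest score of 1000 against 81.5% of kept sites. The share of basal sites without an IL-4 peak was 56.5% at counts of 16 to 19 and 39.6% at 20 to 24. It was 9.29% at 30 to 39 and 1.27% at 60 to 99. The lists also differed in the weakest peak they held, which had a count of 16 in the basal list, 61 at 1 hour, 49 at 6 hours and 17 at 24 hours. No peak with a count below 49 was thus in the 1 or 6 hour list, and the part of this limit in the absence of a peak was not tested. Kept sites had median counts of 129, 106 and 58 at 1, 6 and 24 hours, beside a basal 43. Those at 1 and 6 hours could not lie below 61 and 49, so the rule itself set them above 43. Whether counts of different lists are on 1 scale was not tested.

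**Figure D1:**
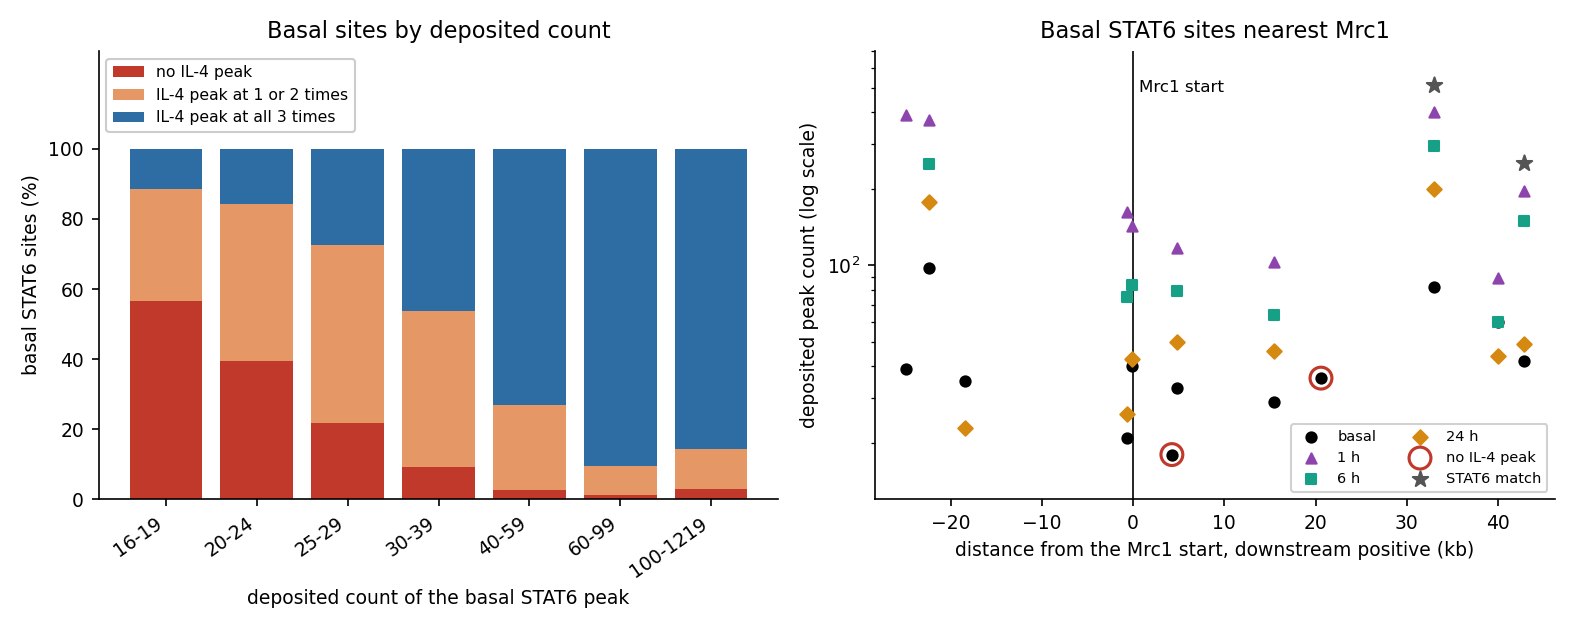
Left, share of the basal STAT6 sites of C57 BMDMs in each of the 3 sets by deposited count of the basal peak. Right, the 12 basal sites nearest Mrc1 by distance from its start, with deposited counts in the basal, 1, 6 and 24 hour lists, red rings for the 2 sites without an IL-4 peak and stars above sites with a STAT6 motif match. Sites of 16 to 19 counts were without an IL-4 peak in 56.5% of cases, and both ringed sites lie inside Mrc1 between kept sites.

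An IL-4 peak nearby was common. The nearest one lay within 500 bp of 850 sites (14.1%) and within 5000 bp of 3097 (51.4%), with a median gap of 4686 bp. At the edge of the rule, the Tfec promoter site (chr6:16898350-16898556, count 36) and a site at chr3:86169184-86169389 touched an IL-4 peak without sharing a base, and those at the Asph promoter and in Ccl9 lay 1 bp away. On the other side, sites near Ap5s1 and at the Sirt6 promoter counted as partly kept through 1 bp of overlap, and a Mrc1 site (chr2:14204351-14204580) through 2 bp. Mrc1, the mannose receptor and a marker of alternative activation, held kept sites and sites without an IL-4 peak within a short distance. The sequences of 1 site of each kind are printed first, with that of the Ifngr2 promoter, which encodes a chain of the interferon-γ receptor. These 3 were chosen after their values were seen. All windows are the 200 bases around the centre of the site, plus strand, mm10 (GRCm38), in lower case. Capitals mark STAT matches, and in the Ifngr2 window PU.1 and C/EBP matches, while matches to other elements stay in lower case.
Mrc1 intron, chr2:14249891-14250090, no IL-4 peak, no STAT match: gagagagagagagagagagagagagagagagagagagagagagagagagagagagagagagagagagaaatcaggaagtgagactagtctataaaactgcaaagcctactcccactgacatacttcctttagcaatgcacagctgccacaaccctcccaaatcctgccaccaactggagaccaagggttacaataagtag
Mrc1 intron, chr2:14262238-14262437, kept, STAT6 match: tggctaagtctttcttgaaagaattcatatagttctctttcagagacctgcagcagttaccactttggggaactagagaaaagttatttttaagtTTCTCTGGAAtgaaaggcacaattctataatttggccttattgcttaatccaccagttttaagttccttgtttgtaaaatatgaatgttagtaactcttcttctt
Ifngr2 promoter, chr16:91546504-91546703, no IL-4 peak, PU.1 and C/EBP matches, no STAT match: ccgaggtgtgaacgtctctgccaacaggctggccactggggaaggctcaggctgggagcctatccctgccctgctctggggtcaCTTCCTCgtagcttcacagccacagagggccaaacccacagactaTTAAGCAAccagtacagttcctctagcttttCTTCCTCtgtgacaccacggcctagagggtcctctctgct
Both Mrc1 windows also hold 1 C/EBP match, and the one without an IL-4 peak 1 EGR match. The kept Mrc1 site lay 12106 bp from the other one. Its deposited count was 82 basal and 400, 294 and 200 at 1, 6 and 24 hours, while the site without an IL-4 peak had a basal count of 36. The Ifngr2 promoter site had a basal count of 65 and a basal STAT6 peak in all 4 other strains but a 24 hour peak in none of them. A C57 IL-4 peak nevertheless lay within 500 bp of the Ifngr2 site. The Mrc1 site without an IL-4 peak had a basal STAT6 peak in 2 other strains and a 24 hour peak in 2. Its nearest C57 IL-4 peak lay more than 500 bp but less than 5000 bp away.

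A match to either STAT element was found in 404 of the 6024 sites (6.71%, exact 95% interval 6.09 to 7.37), against 17.9% of kept sites, 12% of all basal sites and 11.2% of all accessible regions. The elements searched, on both strands, were TTCNNNNGAA, the spacing that STAT6 prefers, and TTCNNNGAA, the spacing used by other STAT proteins, where N is any base. At counts of 20 to 24 a STAT element was found in 6.50% of sites without an IL-4 peak (5.58 to 7.52) and in 23.9% of kept sites (21.4 to 26.7). Kept sites of this band had to meet peaks of at least 61 counts at 1 hour and 49 at 6 hours. The band thus matches basal counts only, here and in all comparisons below, and the part of this selection in the differences was not tested. Peaks that appeared at 1 hour where no basal peak was called held a STAT element in 52.1%. The share at sites without an IL-4 peak thus lay below that of accessible regions at large. These intervals, as all intervals on shares given here, cover counting error only, since each list stands for a group and has no replicate. Of the strongest sites with a STAT match, 2 are printed with the strongest nuclear site without one, in the long noncoding RNA Neat1.
Near Actg1, chr11:120345010-120345209, count 83: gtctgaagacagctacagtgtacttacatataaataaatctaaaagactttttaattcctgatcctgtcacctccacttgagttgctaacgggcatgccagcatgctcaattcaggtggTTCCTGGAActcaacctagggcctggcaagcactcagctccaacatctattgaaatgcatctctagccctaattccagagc
2700054A10Rik intron, chr17:13590905-13591104, count 64: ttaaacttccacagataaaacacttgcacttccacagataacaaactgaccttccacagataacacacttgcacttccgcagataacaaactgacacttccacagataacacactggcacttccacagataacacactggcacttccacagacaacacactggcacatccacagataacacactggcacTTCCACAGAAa
Neat1 exon, chr19:5842320-5842519, count 282, no STAT match: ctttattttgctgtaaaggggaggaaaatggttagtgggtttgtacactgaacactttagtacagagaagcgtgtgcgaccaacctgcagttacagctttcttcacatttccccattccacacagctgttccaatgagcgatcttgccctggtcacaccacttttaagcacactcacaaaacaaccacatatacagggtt
The Actg1 window holds the 9-base element and the 2700054A10Rik window the 10-base element, and repeat sequence makes up 55% of the 2700054A10Rik window. The label of the latter names the nearest gene start, at -22141 bp, and intron there means inside any transcript.

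Other elements also differed between the sets. AP-1 elements (TGANTCA) were found in 10.9% of sites without an IL-4 peak and 25.1% of kept sites, and C/EBP elements (TTGCNNAA) in 8.72% and 18.7%. The PU.1 element (GAGGAAG) was present in 25.3% and 32.7%, and at counts of 20 to 24 in 24.7% and 24.1%, with overlapping intervals. RUNX elements (TGTGGT) were found in 16.9% and 23.4%, EGR elements (GTGGGNG) in 15.3% and 17.8%, and interferon response elements (GAAANNGAAA) in 3.85% and 4.80%. At counts of 20 to 24 these shares were 15.4% and 18.2%, 15.8% and 18.2%, and 4.12% and 5.98%, each pair with overlapping intervals. Elements typical of promoters went the other way. SP/KLF elements (GGGCGGG) were found in 11.8% against 6.16%, ETS elements (CCGGAAG) in 6.18% against 3.41%, NRF1 elements in 2.51% against 0.953% and YY1 elements (AAGATGG) in 4.42% against 3.0%. In all accessible regions the shares were 16.8% for AP-1, 12% for C/EBP, 20.8% for PU.1, 11.2% for SP/KLF, 4.17% for ETS, 1.5% for NRF1 and 3.43% for YY1. Promoters held most SP/KLF elements, with 33.8% of promoter sites without an IL-4 peak and 27.9% of kept promoter sites, and elsewhere the shares were 2.59% and 2.34%. A match is only the presence of these letters in the window.

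**Figure D2:**
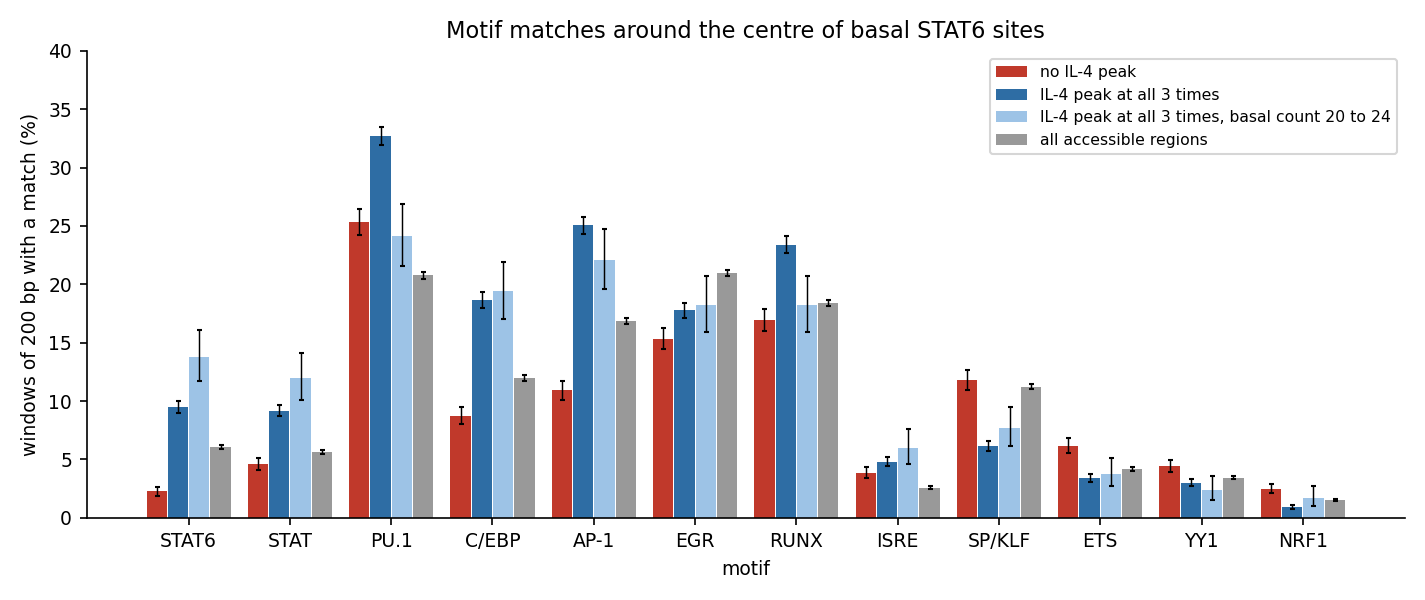
Share of 200-bp windows around site centres that hold each motif on either strand, for sites without an IL-4 peak, kept sites, kept sites with a basal count of 20 to 24 and all accessible regions, with exact 95% binomial intervals. STAT6, STAT, AP-1 and C/EBP bars are lower at sites without an IL-4 peak than at kept sites, and SP/KLF, ETS, YY1 and NRF1 bars are higher.

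Promoters made up a larger part of the sites without an IL-4 peak. Of the 6024 sites, 1774 (29.4%, interval 28.3 to 30.6) had a gene start no more than 1000 bp away, compared with 24.3% of partly kept and 14.9% of kept sites, and at counts of 20 to 24 the shares were 32% and 17% of sites without an IL-4 peak and kept sites. Introns held 38.1% and 47.2%, and intergenic sequence 28.1% and 34.4%. The median distance to the nearest start was 6477.5 bp, against 12802 bp for kept sites. The windows had a median GC content of 50%, against 47.5% for kept sites, and outside promoters 11.3% of them were repeat sequence over at least 50% of their length, against 4.30% of kept sites.

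The strongest sites without an IL-4 peak were not typical of the set. Of the 10 with the highest counts, 4 lay on the mitochondrial genome (2 nearest mt-Nd5, counts 320 and 319, 1 nearest mt-Nd1, count 275, and 1 nearest mt-Co2, count 255), where an IL-4 peak was called 283 to 1327 bp away. Neat1, which builds nuclear paraspeckles, held 2 (282 and 199). The others lay at the Gm26917 promoter (256), at the Tspoap1 promoter (232), near Gm28502 (207) and in a Cdk8 intron (178), the gene of a Mediator kinase. The nearest IL-4 peak lay 12882 bp from the Cdk8 site and at most 1327 bp from each of the other 9, and the Cdk8 site was a basal STAT6 site in all 4 other strains with peaks of 3 other factors.

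Most sites carried PU.1, the ETS factor that opens macrophage enhancers. A basal PU.1 peak overlapped 73.4% of sites without an IL-4 peak, against 86.9% of partly kept and 93.7% of kept sites. C/EBPβ, a partner of PU.1 in myeloid cells, overlapped 10.3% against 52.5% of kept sites, and EGR2, a factor induced by IL-4, 6.13% against 17.1%. For PPARγ, a lipid-sensing nuclear receptor and STAT6 target, the shares were 6.01% and 19.9%. At counts of 20 to 24 the C/EBPβ shares were still 10.2% and 44.5%, those of PU.1 74.1% and 86.2%, and those of EGR2 6.35% and 14.4%, but the PPARγ shares of 5.73% and 6.85% had overlapping intervals. None of the 4 factors had a basal peak at 21.1% of sites without an IL-4 peak and at 1.90% of kept sites.

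After 24 hours of IL-4, C/EBPβ, PPARγ and EGR2 peaks overlapped more of these sites than before and PU.1 peaks overlapped fewer. C/EBPβ overlapped 19.6% at 24 hours, PPARγ 24.3% and EGR2 17%, with 9.26% for EGR2 at 1 hour and 9.0% at 6 hours, and PU.1 overlapped 69.1% against 73.4% basal. At kept sites the 24 hour shares were 71.7% for C/EBPβ, 69.8% for PPARγ, 56.7% for EGR2 and 94.8% for PU.1. The lists themselves grew between the basal state and 24 hours, from 18043 to 37499 peaks for C/EBPβ, from 7627 to 39088 for PPARγ and from 8437 to 29407 for EGR2, against 85916 and 90308 for PU.1, and the part of list size in these shares was not tested.

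**Figure D3:**
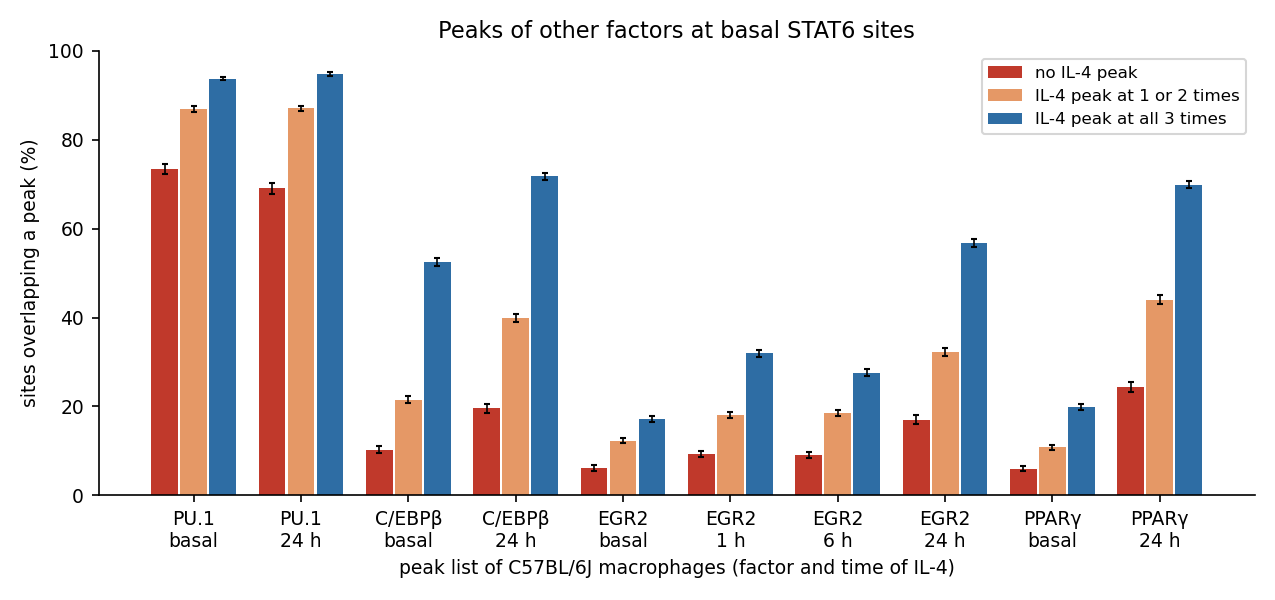
Share of sites that overlap a peak of another factor in C57 BMDMs, for each list, in the 3 sets of basal STAT6 sites, with exact 95% binomial intervals. In every list the bar of sites without an IL-4 peak is the lowest, from 6.01% for basal PPARγ to 73.4% for basal PU.1.

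The other strains offered STAT6 lists that the rule did not use. A basal STAT6 peak overlapped the C57 site in 7.09% (BALB), 19.4% (NOD), 7.01% (PWK) and 24.1% (SPRET) of sites without an IL-4 peak, against 55.3%, 77.3%, 59.9% and 70.6% of kept sites. None of these strains had a basal peak at 3498 sites (58.1%), and all 4 had one at 41 (0.681%), against 7.41% and 34.1% of kept sites. At counts of 20 to 24 the basal shares in BALB, NOD, PWK and SPRET were 3.73%, 15.3%, 4.62% and 23.1%, against 13.7%, 38.3%, 26.1% and 46.5% of kept sites. Where a strain did have a basal peak, the peak was often missing at 24 hours there too. This was so at 358 of 427 sites in BALB (83.8%), 1004 of 1168 in NOD (86.0%), 177 of 422 in PWK (41.9%) and 816 of 1453 in SPRET (56.2%). At kept sites the same shares were 15.1%, 15.4%, 2.96% and 6.23%, and at partly kept sites 51.1%, 55.5%, 14.4% and 28%. Over all basal sites they were 26.2%, 32.5%, 7.09% and 17.5%. These shares were not split by count, and the part of peak strength in their differences was not tested. PWK had 14022 peaks basal and 38679 at 24 hours and its share was the lowest in each set, while NOD had 20653 and 20619. The reverse also occurred. Of the sites without an IL-4 peak in C57, 164 (BALB), 155 (NOD), 836 (PWK) and 524 (SPRET) had a 24 hour peak but no basal one. In PWK these outnumbered the 177 with only a basal peak. Peaks at 24 hours overlapped 3.87%, 5.30%, 17.9% and 19.3% of the sites in BALB, NOD, PWK and SPRET, against 70.4%, 77.8%, 87.1% and 79.9% of kept sites.

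**Figure D4:**
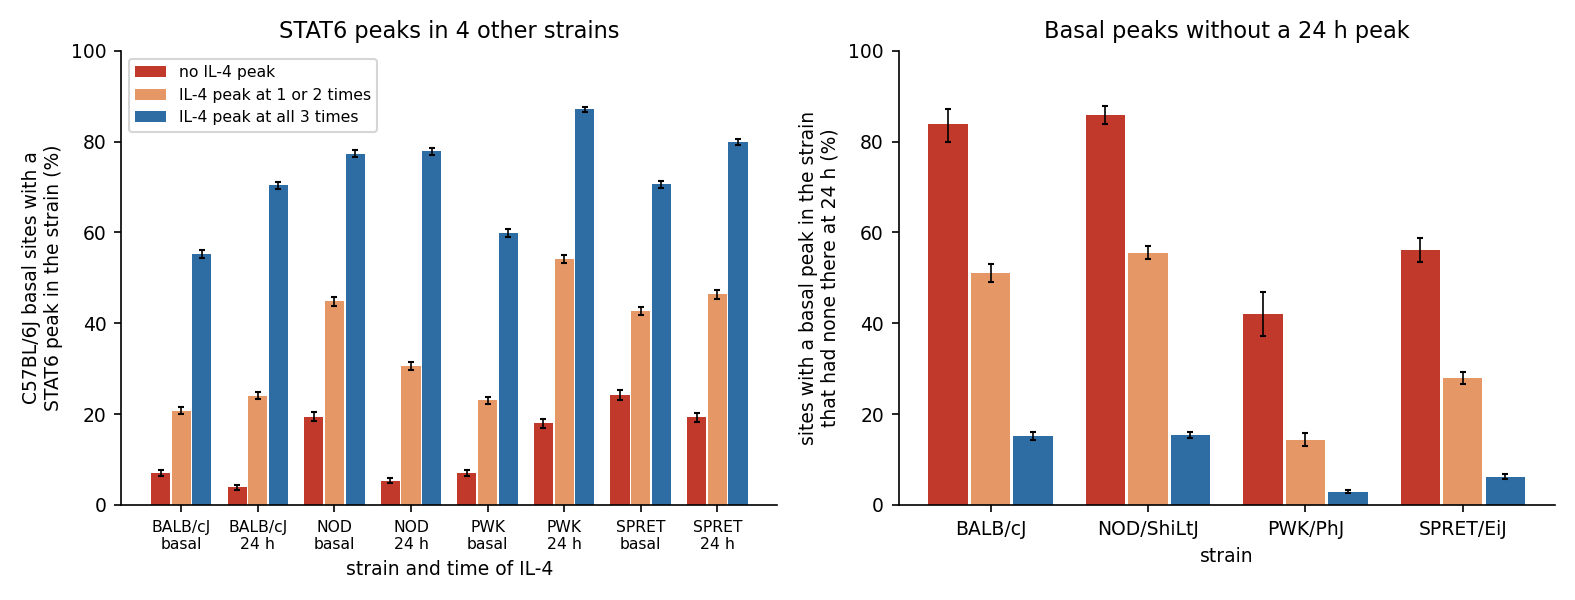
Left, share of C57 basal sites with a STAT6 peak in each other strain, basal and after 24 hours of IL-4; right, share of sites with a basal peak in the strain that had none there at 24 hours, both with exact 95% binomial intervals. Right, the bars of sites without an IL-4 peak in C57 reach 83.8%, 86.0%, 41.9% and 56.2% and those of kept sites 2.96% to 15.4%.

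Tags of histone marks and Pol II were deposited for accessible regions of 1000 bp, and 4238 of the 6024 sites (70.4%) fell into 4218 of the 77955 regions of the time course, against 96.8% of kept sites. All tag results are about these 4218 regions, of which 96 also held another basal STAT6 site. Each H3K27ac group had 2 libraries, labelled biological replicates, and Pol II had 4 basal, 1, 2 and 3 libraries at 1, 6 and 24 hours. In the basal H3K27ac libraries 63.8% and 69.7% of tags lay in the regions, against 20.5% in the second 1 hour library, which was also the deepest with 2.91e+07 tags in all (the others held 1.18e+07 to 1.64e+07), and 41.2% to 51.0% in the other IL-4 libraries. The part of this difference in the falls below was not tested, and values after scaling each library by its median ratio over regions are given beside them.

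Median H3K27ac at the sites without an IL-4 peak was 57.8 and 59.4 normalized tags in the basal libraries, 29.4 and 18.9 at 1 hour, 36.8 and 34.7 at 6 hours and 34.8 and 34.1 at 24 hours. Every IL-4 library lay below both basal libraries. Over all regions the means of the medians were 19.1 basal and 12.7, 18.4 and 17.7 at the 3 times. The median log2 difference from basal was -1.18 ± 0.56 at 1 hour, -0.54 ± 0.10 at 6 hours and -0.68 ± 0.21 at 24 hours (SD, n = 2 against 2, from the spread of the library medians in both groups). Over all regions it was -0.63, -0.14 and -0.22, so that relative to all regions the sites were lower by -0.55, -0.39 and -0.46. Median-ratio scaling moved the median of all regions to 0.09, 0.04 and 0.05 and that of the sites to -0.40, -0.34 and -0.38, and without the second 1 hour library the 1 hour values were -0.36 for all regions and -0.76 for the sites. Kept sites had median differences of -1.24, -0.55 and -0.68, less than the spread between libraries away from the sites without an IL-4 peak at each time. In these bulk cultures, fewer cells with the mark and less of the mark per cell cannot be told apart.

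Promoters carried most of the mark. At the 1667 promoter regions the basal mean of the library medians was 127.2 H3K27ac tags, and at the 2551 regions outside promoters 28.9. H3K4me3, the promoter mark, had means of 462.3 and 371.5 basal and at 24 hours at promoters and of 4.62 and 5.48 elsewhere. Pol II at promoters was 99.5 basal (SD 21.7, n = 4), 99.3 at 6 hours (SD 44.4, n = 2) and 103.2 at 24 hours (SD 33.3, n = 3), and 71.1 in the only 1 hour library. These Pol II means differed by less than the spread between libraries.

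Single regions were tested with limma over all regions of the table. The test compares the libraries at hand, so its p-values measure the spread between them, and a call is an adjusted p under 0.05 after Benjamini-Hochberg adjustment over all regions. At 1 hour H3K27ac fell at 593 of the 4218 regions (14.1%) and rose at 7 (0.166%), while among all regions 8.36% fell and 1.37% rose. At 6 hours it fell at 229 (5.43%) and rose at 8 (0.190%), against 2.46% and 2.67% of all regions. At 24 hours it fell at 37 (0.877%) and rose at 5 (0.119%), against 0.327% and 1.13%. All regions had lower basal medians than these sites. Kept sites had median log2 changes of -1.24, -0.55 and -0.68 at the 3 times, close to those of the sites without an IL-4 peak. The shares called among kept sites are not given. The shares of calls above are thus not read as a trait particular to sites without an IL-4 peak. After median-ratio scaling the split was 65 lower and 16 higher at 1 hour, 135 and 16 at 6 hours, and 20 and 15 at 24 hours. At 165 regions the mark fell at both 1 and 6 hours, and at 28 at all 3 times. No counts over all regions are given beside these or the scaled splits, so they mark no trait of these sites. The number of calls rested on single libraries. At 1 hour the total of 600 became 1872 without the first 1 hour library, 131 without either 6 hour library, 281 without the first and 19 without the second basal library. The 6 hour total of 237 became 7 or 16 without the first or second 6 hour library, 33 without the second basal library, and 426 or 405 without the first or second 1 hour library. The 24 hour total of 42 became 248 or 229 without the first or second 1 hour library, 22 or 19 without a 24 hour library, 10 or 9 without a 6 hour library and 5 without the second basal library.

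**Figure D5:**
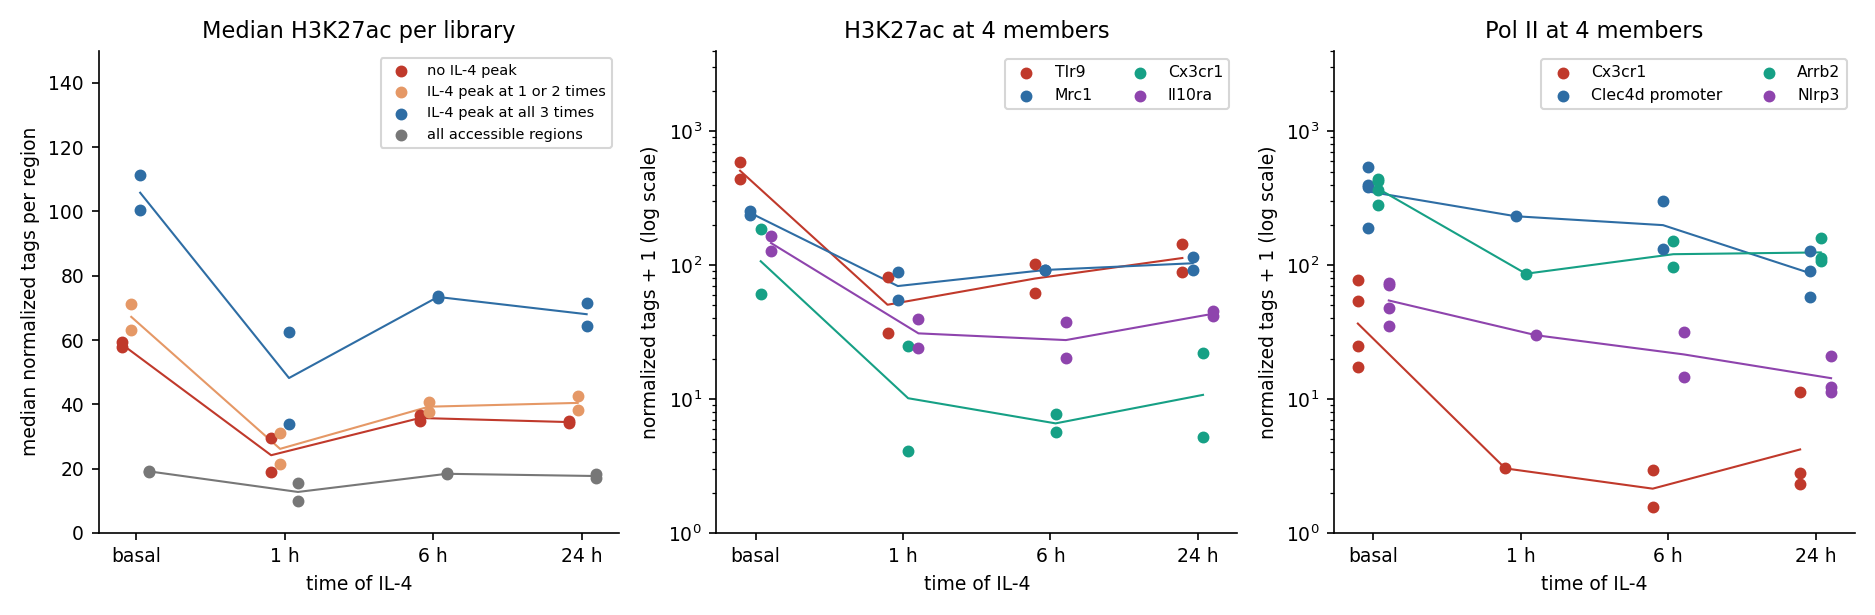
Left, median H3K27ac tags of each library at sites without an IL-4 peak, partly kept sites, kept sites and all regions; middle and right, H3K27ac and Pol II tags of each library at 4 sites without an IL-4 peak each, against hours of IL-4, on log axes of normalized tags + 1 with lines joining means of the log values. The basal medians of 57.8 and 59.4 at sites without an IL-4 peak are above those of every IL-4 library, and the points of Cx3cr1 drop the furthest on the right.

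The largest changes were at a few named sites. The largest H3K27ac falls at 1 and 6 hours were in neighbouring genes on chromosome 11. At the Sfi1 intron site (chr11:3174275-3174506), tags were 363.0 and 318.0 basal, 1.55 and 17.2 at 1 hour, 4.62 and 46.3 at 6 hours and 412.5 and 261.9 at 24 hours. The libraries at 1 and 6 hours lay far below the basal ones and those at 24 hours around them, and the 1 hour log2 change was -5.64 (SE 0.87, adjusted p = 0.00549 by limma, 0.0608 by DESeq2). At a Gm11399 intron site (chr11:3143804-3144065) the basal values were 57.7 and 75.6, the 6 hour values 0.77 and 0, and the 24 hour values 87.4 and 112.9, a 6 hour change of -5.65 (SE 0.59, adjusted p = 0.000221 by limma). Both belong to a run of 21 sites without an IL-4 peak (15 nearest Gm11399 and 6 nearest Sfi1, which encodes a centrin-binding protein) at chr11:3100381-3190032. H3K27ac fell at 13 of the 21 regions at 1 hour, at 12 at 6 hours and at none at 24 hours. It rose at 1 of them at each time, and at 24 hours this was the Sfi1 promoter site, with 8.82 and 12.8 tags basal and 66.2 and 48.6 at 24 hours (log2 change 2.31, SE 0.57, adjusted p = 0.0479 by limma). That call ended without any basal, 6 hour or 24 hour library, with p of 0.114 to 0.22. The median of the 21 regions was 33.9 and 32.1 in the basal libraries, 1.55 and 6.20 at 1 hour, 1.54 and 4.26 at 6 hours and 67.1 and 77.4 at 24 hours. For Pol II the medians ranged from 4.99 to 68.9 over the basal libraries and from 7.28 to 74.4 over the 24 hour libraries, so libraries of 1 group differed at this locus by more than 10-fold.

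The largest fall at 24 hours was near Pilrb2, which encodes a paired immunoglobulin-like receptor. Its H3K27ac was 116.7 and 189.0 basal, 20.9 and 8.95 at 1 hour, 19.3 and 12.2 at 6 hours and 8.49 and 15.8 at 24 hours, with no overlap between basal and IL-4 libraries, and the 24 hour change was -3.57 (SE 0.60, adjusted p = 0.00524 by limma). A site near Gpr84, which encodes a receptor for medium-chain fatty acids, held the largest rise at 1 hour. Its tags went from 4.75 and 0.71 to 22.4 and 23.1, a change of 2.92 (SE 0.64, adjusted p = 0.0166 by limma, 0.181 without the second basal library). Pex26, a peroxisomal import gene, held it at 6 hours. The tags there went from 12.2 and 9.98 to 143.2 and 145.4, a change of 3.59 (SE 0.61, adjusted p = 0.00318 by limma, 0.0815 and 0.0732 without the first and second 6 hour library). At 24 hours it was at a site near Tmem267, from 1.36 and 2.14 to 53.5 and 20.4, a change of 3.65 (SE 0.73, adjusted p = 0.0165 by limma, 0.102 without the first 24 hour library).

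Of the 42 H3K27ac calls at 24 hours, 23 were lost by edgeR, 24 after median-ratio scaling and 41 with some single library left out, all but that of Pilrb2. The promoter of Coro1a, an actin-binding protein of leukocytes, was among the 37 lower regions. At the Coro1a promoter H3K27ac was 464.1 and 671.0 basal and 50.9 and 109.6 at 24 hours, and Pol II was 116.7, 150.9, 271.2 and 192.4 basal and 25.3, 84.7 and 47.5 at 24 hours. All 24 hour values lay below every basal value. H3K27ac fell by limma (adjusted p = 0.0175, 0.0219 by edgeR), with p of 0.183 without the first 24 hour library, 0.053 and 0.055 without either 6 hour library and 0.149 without the second basal library. Pol II also fell by limma (adjusted p = 0.0464, 0.0536 by edgeR). Its p was 0.331 and 0.0751 without the first and the third 24 hour library, 0.0632 and 0.0624 without either 6 hour library and 0.0937, 0.164 and 0.148 without the second, the third and the last basal library. H3K27ac and Pol II fell together at 4 regions at 24 hours, near Cd14, Coro1a, Gm38832 and Sh3tc2. The share of all regions where both fell is not given, so this count marks no trait of the sites. The Pol II call at Sh3tc2 was lost by edgeR (adjusted p = 0.0522) and after scaling (0.0668), and without the first or second 24 hour library (0.158 and 0.247) or the second, the third or the last basal library (0.0546, 0.163 and 0.156). That at Gm38832 was lost without the second 24 hour library (0.0596). The H3K27ac calls were lost at Sh3tc2 without the first 24 hour, the second 6 hour or the second basal library (0.153, 0.0522 and 0.151) and at Gm38832 without any basal, 6 hour or 24 hour library (0.079 to 0.189).

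Pol II fell at 13 and rose at 2 of the 4218 regions at 6 hours (0.308% and 0.0474%), against 0.137% and 0.428% of all regions, and fell at 21 and rose at 2 at 24 hours (0.498% and 0.0474%), against 0.174% and 0.503%. After median-ratio scaling the counts were 15 lower and 7 higher at 6 hours and 23 and 7 at 24 hours. At 7 regions Pol II fell at both times. No counts over all regions are given beside these or the scaled counts, and no Pol II calls at kept sites. They thus mark no trait of the sites without an IL-4 peak. The 6 hour total of 15 became 0 without either 6 hour library, 132 without the first, 3 without the second and 1 without the third and 1 without the last basal library, and 9 and 26 without the first and the third 24 hour library. The 24 hour total of 23 became 1 or 2 without the first or second 24 hour library, 58 without the first basal library and 6, 3 and 4 without the second, the third and the last.

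The largest Pol II fall at 24 hours was at the promoter of Cx3cr1 (chr9:120068111-120068403), the fractalkine receptor of monocytes and resident macrophages. Pol II was 16.2, 24.1, 53.1 and 76.0 in the basal libraries, 2.03 in the 1 hour library, 0.55 and 1.95 at 6 hours and 1.33, 1.82 and 10.3 at 24 hours. All 6 IL-4 libraries lay below all 4 basal libraries. The change was -4.10 at 6 hours (SE 0.70, adjusted p = 0.0136 by limma) and -3.12 at 24 hours (SE 0.62, adjusted p = 0.026 by limma, 0.028 by edgeR). The 6 hour p was 0.31 and 0.153 without the first and second 6 hour library and 0.0552 without the last basal library. The 24 hour p was 0.191 and 0.145 without the first and second 24 hour library and 0.0868 and 0.1 without the third and the last basal library. The same region held 60.4 and 185.4 H3K27ac tags basal, 3.09 and 24.1 at 1 hour, 4.62 and 6.69 at 6 hours and 4.24 and 21 at 24 hours. Other regions where Pol II fell at 24 hours lay at the promoter and in an intron of Clec4d, a C-type lectin receptor, in Arrb2, which encodes a β-arrestin, and near Nlrp3, the inflammasome sensor, and the latter 4 regions were chosen from the 21 after their values were seen. All 23 Pol II calls at 24 hours, higher or lower, ended with some single library left out. Each of these 4 ended without the first or second 24 hour library or the second or the third basal library, those at the Clec4d promoter, Arrb2 and Nlrp3 also without the third 24 hour library, and those at Arrb2 and Nlrp3 also without the last basal library. The highest p was 0.127 at the Clec4d promoter, 0.136 in its intron, 0.229 for Arrb2 and 0.173 for Nlrp3. At the Clec4d promoter the basal values were 544.7, 385.2, 396.1 and 189.4 and the 24 hour values 126.7, 88.7 and 56.4. The largest rise was in Gm48237, from 3.12, 2.41, 3.75 and 5.06 basal to 40.02, 28.2 and 10.3, a change of 2.41 (SE 0.47, adjusted p = 0.0236 by limma). Its p was 0.201 and 0.138 without the first and second 24 hour library and 0.0681, 0.0583 and 0.0505 without the second, the third and the last basal library.

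Sites near genes of 5 pathways were counted by the nearest gene start within 50000 bp. Of the 84 basal sites at genes of alternative activation, 8 (9.52%, interval 4.2 to 17.9) had no IL-4 peak, against 19.7% of all basal sites. They lay at Mrc1 and at Cd36, a scavenger receptor, with 2 each, and at Pparg, Egr2, Il4ra and Myc. At Cd36, 7 of 9 basal sites were kept, and the pair without an IL-4 peak had counts of 24 and 31. JAK-STAT and feedback genes had 28 of 132 (21.2%, 14.6 to 29.2), at 18 genes. By score, the first 4 lay at the promoters of Ifngr2 (count 65) and Il10rb (33) and near Ifnar2 (29) and Il10ra (25), and sites of lower score included a Ptpn1 intron (31) and the Socs5 promoter (29), genes of negative feedback. Inflammatory genes had 26 of 164 (15.9%, 10.6 to 22.4), with the strongest near Cd14 (51 and 42), the lipopolysaccharide co-receptor, followed by Ccl9 (36) and Nfkbiz (34). Interferon-stimulated genes had 8 of 44 (18.2%, 8.19 to 32.7), among them Irf7 (43), Irf8 (30), Irf1 (35) and Gbp5 (22). Macrophage lineage genes had 39 of 208 (18.8%, 13.7 to 24.7), with Mitf (60), the Adgre1 promoter (42), the Mef2a promoter (38) and Spi1 (37), which encodes PU.1. Of the 4308 genes nearest a site without an IL-4 peak within this distance, 1886 also had a kept site and 1728 had neither a kept nor a partly kept site.

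H3K27ac at the matched regions of these lists rose at none. The counts of lower regions at 1, 6 and 24 hours were 1, 0 and 0 of 4 for alternative activation and 1, 1 and 0 of 19 for JAK-STAT and feedback. They were 3, 3 and 1 of 10 for inflammatory genes, 1, 0 and 0 of 7 for interferon-stimulated genes and 3, 1 and 0 of 24 for lineage genes, where 8.36%, 2.46% and 0.327% of all regions were lower. All 9 calls at 1 hour were lost by edgeR (adjusted p = 0.0532 to 0.216) and 8 of them with some single library left out, the exception being Tlr9. Of the 5 calls at 6 hours 1 was lost by edgeR, and all 5, like the 1 call at 24 hours, ended with some single library left out. The median log2 changes at 24 hours were -0.48, -0.57, -1.26, -0.80 and -0.69 in the same order. They stand beside -0.22 over all regions and -0.68 over the 4218 regions of sites without an IL-4 peak. Pol II fell at 1 inflammatory and 2 lineage regions at 6 hours and at 2 and 1 at 24 hours, where 0.137% and 0.174% of all regions were lower, and each of these 6 calls ended with some single library left out. The median log2 changes of Pol II at 24 hours were 1.22, 0.08, -0.76, -0.07 and -0.31 in the same order, beside -0.02 over all regions.

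At the Tlr9 promoter (chr9:106223133-106223375), whose gene encodes the sensor of unmethylated CpG DNA, H3K27ac was 589.6 and 435.7 basal, 30.2 and 81.2 at 1 hour, 60.8 and 101.02 at 6 hours and 141.8 and 88.6 at 24 hours. Every IL-4 library was below both basal libraries. The 1 hour change of -3.33 (SE 0.60, adjusted p = 0.00994 by limma, 0.0532 by edgeR) also passed with any single library left out, and the 6 hour change of -2.68 had an adjusted p of 0.0156 by limma that became 0.256 and 0.11 without the first and second 6 hour library and 0.0621 and 0.0622 without the first and second basal library. At a Cd14 region H3K27ac was 512.9 and 759.4 basal, 224.2 and 83.7 at 1 hour, 156.3 and 81.6 at 6 hours and 76.4 and 82.7 at 24 hours, and Pol II was 252.7, 201.4, 409.5 and 327.1 basal and 56.7, 55.5 and 101.3 at 24 hours. Neither measure overlapped between basal and 24 hours, and the changes were -2.96 for H3K27ac (SE 0.60, adjusted p = 0.0183 by limma) and -2.06 for Pol II (SE 0.35, adjusted p = 0.0115 by limma). The H3K27ac p was 0.1 and 0.101 without the first and second 24 hour library, 0.0557 and 0.0574 without a 6 hour library and 0.15 without the second basal library, and the Pol II p was 0.114 and 0.0766 without the first and second 24 hour library and 0.0507 and 0.0505 without the third and the last basal library.

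At the printed Mrc1 site without an IL-4 peak, H3K27ac was 254.4 and 234.6 basal, 88.1 and 53.7 at 1 hour, 90.9 and 91.3 at 6 hours and 91.7 and 114.2 at 24 hours. The IL-4 libraries all lay below the basal ones, and the 1 hour change was -1.81 (SE 0.54, adjusted p = 0.0422 by limma, 0.149 by edgeR). It passed only with all libraries or without the first 1 hour library, and the p was 0.06 to 0.217 without any other library. The printed Ifngr2 promoter site had 835.2 and 719.5 basal tags, 402.7 and 201.0 at 1 hour, 502.1 and 501.4 at 6 hours and 611.2 and 373.4 at 24 hours, and did not pass at any time (adjusted p = 0.113, 0.621 and 0.545 by limma).

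H3K4me2 and H3K4me3 were measured basal and at 24 hours. H3K4me2 at the 3843 matched regions of the C57 table had a mean of library medians of 66.6 basal and 37.1 at 24 hours, beside 45.4 and 28.8 over all regions. By limma 9 regions passed (0.234%), 4 higher and 5 lower, against 0.236% of all regions, and after median-ratio scaling 7 were higher and 1 lower. The 9 became 2787 and 0 without the first and second 24 hour library, and 3 and 0 without the first and second basal library. H3K4me3 passed at none by limma (0% of all regions), with 1084 of the 3843 at an unadjusted p under 0.05, at 15 by edgeR and 35 by DESeq2, and at 1056 (972 lower) in a fit blocked on the replicate number. EGR2 tags at 1108 matched regions passed at none by limma at 1, 6 and 24 hours (0% of all regions each), with 7, 32 and 4 at an unadjusted p under 0.05, and at 55 at 1 hour and 2 at 6 hours without the second 1 hour library.

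STAT6 itself was counted in Egr2flfl cells, but only in regions around EGR2 peaks induced at 24 hours in the study's own selection, which held 43 of the sites without an IL-4 peak among 4677 regions. STAT6 tags rose with IL-4 at 4 of the 43 (9.30%) by limma and fell at none, against 11.8% of all regions called in either direction. At 34 of the 43 the mean was higher at 24 hours, and the median log2 change was 0.53 beside 1.04 over all regions. The direction of this median depended on the scaling, with -0.44 after median-ratio scaling, -0.63 by edgeR and -0.77 by DESeq2. The 4 regions lay in introns and were nearest the starts of Hmbox1, Gm14010, Cltc and Ksr1. A C57 IL-4 peak was 2, 31, 38 and 215 bp away from them. In the region nearest Hmbox1, STAT6 was 9.28 and 2.39 basal and 34.9 and 27.4 at 24 hours in Egr2flfl cells, and 13.4 and 8.26 basal and 14.4 and 10.1 at 24 hours in LyzMCreEgr2flfl cells. The change in Egr2flfl cells was 2.44 (SE 0.61, adjusted p = 0.0101 by limma, 0.403 by edgeR), and the difference between genotypes was not tested. All 4 calls were lost without either 24 hour library or the second basal library of Egr2flfl, and edgeR and DESeq2 called 0. PU.1 was higher at 1 of the 43 by limma (8.23% of all regions called), lower at 1 by edgeR, and passed by limma at 0 without any 1 of the 4 Egr2flfl libraries. PPARγ passed at 0 (0% of all regions, 8 at an unadjusted p under 0.05) and C/EBPβ at 0 (2.1% of all regions, 2 at an unadjusted p under 0.05), and edgeR and DESeq2 also called 0 for both. For PPARγ limma called 2 without the first 24 hour library of Egr2flfl and 1 without any other library of Egr2flfl.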

How the data were processed

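Processed files of C57, BALB, NOD, PWK and SPRET BMDMs and of the Egr2 genotypes were used, from a series of 267 samples. Per the labels and methods, the authors mapped reads with Bowtie2, shifted other strains to mm10, built HOMER tag directories and kept peaks reproducible between replicates. The deposited lists give 1 set of peaks per group, with a score of reproducibility and a count per peak; PPARγ lists keep the peak caller's own score. The deposited tag tables hold signal, tags in 1000 bp (histone marks, Pol II) or 300 bp (factors) scaled by the authors to 10000000 per library. H3K27ac libraries held 1.18e+07 to 2.91e+07 tags. Library pairs of a group differed by more than sampling noise (chi-square per degree of freedom 1.41 to 16.8 over 38 pairs).

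Overlap needed 1 bp. A site took the name of its nearest gene start. Intron means inside any transcript, which can be that of another gene. Log2(tags + 1) was tested with limma 3.58.1 (R 4.3.3), all groups of a table in 1 fit, Benjamini-Hochberg adjusted over all regions. Every value came out as whole reads (100%, tolerance 0.1), on which edgeR 4.0.16 (quasi-likelihood) and DESeq2 1.42.0 were run as alternatives, with another pseudocount (5), a filter on low values, median-ratio scaling, replicate blocks and single libraries left out. Shares have exact Clopper-Pearson 95% intervals. Sequence came from the mm10 reference, 12 motifs on 2 strands of 200 bp. Scripts were tested on simulated data (Python 3.11.15).

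Named sites were the 10 highest scoring, the largest called rise and fall per time, up to 4 per gene list by score, and those at the edge of the overlap rule. Sites and gene lists were chosen with earlier results of these data known. Columns of the authors' own comparisons were not used. The sequence of 1 further site is not reported here.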

Additional observations from a re-analysis of the deposited data

How the results depend on the processing

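The number of basal sites without an IL-4 peak was 14935 against the higher-scoring 50% of each IL-4 list, and 6384 to 12087 with 1 IL-4 list left out, the highest without the 24 hour list. Among basal sites with a score of 1000 it was 1050 and with a count of at least 30 it was 821, both chosen after seeing the data. With 100 bp of overlap required, PU.1 overlapped 70.2%, C/EBPβ 9.36%, EGR2 5.35% and PPARγ 5.23%, and STAT6 in SPRET 22.5% basal and 18% at 24 hours. Counting peaks within 500 bp, the shares were 82.4%, 15.8%, 10.4% and 8.42%, and for STAT6 in BALB, NOD, PWK and SPRET 10.4%, 24.5%, 10.4% and 30.9% basal and 8.63%, 10.6%, 26% and 26.9% at 24 hours. With only the higher-scoring 50% of each list they were 50.2%, 4.37%, 2.76% and 2.76%. At sites with no IL-4 peak within 500 bp, PU.1 overlapped 75.8%, basal STAT6 in BALB 6.22% and in PWK 6.01%, and 24 hour STAT6 in BALB 3.11% and in NOD 4.66%. At sites with a score of 1000 (chosen after seeing the data) the shares were 76.8% for PU.1, 14.2% for C/EBPβ and 10% for PPARγ, 21%, 40.9%, 17.4% and 32.7% for basal STAT6 in BALB, NOD, PWK and SPRET and 11.1%, 13%, 25.4% and 24.5% at 24 hours, with a STAT element in 5.71% and a promoter position in 25%. Without chromosomes M and Y, chosen after seeing the data, these last shares were 6.70% and 29.5%.

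The median H3K27ac change was -0.40, -0.34 and -0.38 at 1, 6 and 24 hours after median-ratio scaling. With 1 library left out it ranged from -1.54 to -0.76, from -0.65 to -0.46 and from -0.80 to -0.54. H3K27ac calls at 1 hour were 208 by DESeq2, 60 by edgeR and 81 after scaling, those at 6 hours 151 after scaling and those at 24 hours 143 by DESeq2. Pol II calls by DESeq2 were 90 at 6 and 71 at 24 hours, and H3K4me3 calls 35 by DESeq2 and 15 by edgeR. STAT6 calls in Egr2flfl were 0 by DESeq2, by edgeR and after scaling, PU.1 calls 0 by DESeq2 and after scaling, PPARγ calls 1 with the filter on low values and C/EBPβ calls 1 with a pseudocount of 5. With 1 library left out, H3K27ac calls ranged from 19 to 1872, 7 to 426 and 5 to 248 at the 3 times, Pol II calls from 0 to 132 and 1 to 58, H3K4me2 calls from 0 to 2787, H3K4me3 calls from 0 to 0, EGR2 calls from 0 to 55, 0 to 2 and 0 to 0, and STAT6, PPARγ, PU.1 and C/EBPβ calls in Egr2flfl from 0 to 5, 0 to 2, 0 to 1 and 0 to 0. The cause of these shifts was not tested. Of the planned values 152 stayed within the limits set for them and 105 moved, and none of the median H3K27ac changes turned direction. After median-ratio scaling, medians over the sites turned from 0.53 to -0.44 for STAT6, from 0.80 to -0.04 for PPARγ, from 0.09 to -0.16 for PU.1 and from 0.38 to -0.08 for C/EBPβ in Egr2flfl, and for EGR2 from -0.48 to 0.09, from 0.14 to -0.08 and from 0.55 to -0.09 at 1, 6 and 24 hours. The limma call of PU.1 was higher and that of edgeR lower. edgeR and DESeq2 were not run for EGR2.

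The replicate numbers of the labels are shared between groups, but nothing says that a number marks a shared animal or day, and the deviations of same-numbered H3K27ac libraries correlated by 0.014 to 0.45. A fit blocked on the replicate number called 1547, 573 and 354 for H3K27ac, 37 and 81 for Pol II, 19 for H3K4me2, 1056 for H3K4me3 and 7 for STAT6 in Egr2flfl. With 2 libraries in most groups, differences in single regions below several-fold could not be resolved, and weak peaks near the limits of the lists can be absent from a list without a measured difference.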
